A study of Mus musculus with 33 samples.

Results

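FGF ligands, their receptors and the feedback genes of receptor tyrosine kinase signalling were followed in the ganglionic eminences of mouse embryos with and without Dlx1 and Dlx2. The set holds every symbol of the count table that starts with Fgf and a digit or r, with Spry and a digit, or with Spred or Dusp, together with Etv4, Etv5, Il17rd and Flrt3. It has 49 genes of the 14664 in the table, and all 49 passed the filter on low counts. The ganglionic eminences form the floor of the embryonic telencephalon, where striatal projection neurons and most forebrain GABAergic interneurons are born. RNA-seq was made from 4 wild-type and 4 Dlx1/2-/- embryos of the CD1 strain at e13.5, the sexes mixed in each genotype. Both groups were of the same strain and age and differed in genotype only, as far as the labels say. The sources used here do not say how the Dlx1/2 allele was made. By Xist and Y-linked transcripts each library was either female or male, with 2 female and 2 male libraries per genotype. This does not show that each library came from a different embryo.

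FGFs are secreted ligands that bind receptor tyrosine kinases together with heparan sulfate and switch on the RAS and ERK kinase cascade. ERK activity induces ETS transcription factors of the Etv group and also induces its own brakes, the Sprouty and Spred proteins, the phosphatase Dusp6 and the membrane proteins Il17rd and Flrt3, so the levels of these genes are often read as output of the pathway. In the embryonic telencephalon, FGF signalling is known for its part in patterning, in the upkeep of progenitors and in growth. The set also holds relatives that are not outputs of this pathway, among them the FGF homologous factors, which are intracellular and bind ion channels. Others are the phosphatases of JNK and p38, and Fgfr1op and Fgfr1op2, which encode no receptor. The Dusp names also brought in 12 atypical dual-specificity phosphatases.

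The proximal promoters of Etv5, Fgfr2, Spry1 and Spry2, the members on which the results turned, are shown as the 250 bases before the annotated start, from RefSeq on build GRCm38.p6 and in the direction of the gene. Capitals mark TAAT or its reverse complement ATTA, the core letters of homeodomain sites such as those of DLX proteins. Etv5 has more than 1 annotated start, and the upstream one is shown (chr16:22439571-22439820, minus strand). The other windows are chr7:130266809-130267058 on the minus strand for Fgfr2, chr3:37639697-37639946 on the plus strand for Spry1 and chr14:105896820-105897069 on the minus strand for Spry2.
Etv5: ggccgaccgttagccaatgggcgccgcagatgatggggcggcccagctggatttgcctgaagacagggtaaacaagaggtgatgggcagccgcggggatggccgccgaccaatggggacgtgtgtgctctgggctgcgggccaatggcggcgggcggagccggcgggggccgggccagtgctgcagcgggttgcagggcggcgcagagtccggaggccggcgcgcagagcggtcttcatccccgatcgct
Fgfr2: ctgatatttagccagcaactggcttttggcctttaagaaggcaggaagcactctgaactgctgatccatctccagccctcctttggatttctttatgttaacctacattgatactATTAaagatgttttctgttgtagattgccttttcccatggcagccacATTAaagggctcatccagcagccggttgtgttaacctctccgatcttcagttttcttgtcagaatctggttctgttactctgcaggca
Spry1: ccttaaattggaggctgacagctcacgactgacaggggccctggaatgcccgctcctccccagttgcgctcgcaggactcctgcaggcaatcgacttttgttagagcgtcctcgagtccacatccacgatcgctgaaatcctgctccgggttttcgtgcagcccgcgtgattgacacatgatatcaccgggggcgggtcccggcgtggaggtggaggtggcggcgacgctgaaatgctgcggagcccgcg
Spry2: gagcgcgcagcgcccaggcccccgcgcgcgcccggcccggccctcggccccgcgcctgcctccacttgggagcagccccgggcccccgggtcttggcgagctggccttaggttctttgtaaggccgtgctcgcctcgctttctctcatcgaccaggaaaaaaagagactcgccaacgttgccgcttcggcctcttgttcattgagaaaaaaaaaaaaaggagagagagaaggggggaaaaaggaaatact
Fgfr2 held 2 such matches, and the other 3 windows held none of these letters. Their GC content was 71.2% for Etv5, 44% for Fgfr2 and 62.4% for both Spry1 and Spry2. Of the 49 members, 40 had a promoter entry, and these gave 49 windows, since some genes have several starts. TAAT or ATTA stood in 17 of 49 windows (34.7%), beside 54.9% of all 32851 windows of the same length. The longer palindrome TAATTA, which contains TAAT, stood in 0 of 49, beside 4.84%. CCGGAA or its reverse complement TTCCGG, core letters of ETS sites, stood in 6 of 49 (12.2%), beside 12% of all windows. A match in these letters does not show that a protein binds there. The shares were not adjusted for the GC content of the windows, so a lower share does not show a lack of sites.

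The libraries held 14.4 to 117 M counts, and the members took 0.132 to 0.136% of them in wild type and 0.143 to 0.149% in knockout. This share follows the most abundant members, and of the 49 changes 24 were positive and 25 negative. The targeted genes followed the labels. Dlx1 fell from 124 ± 4.53 to 23.4 ± 1.97 CPM (counts scaled to a common library total, mean ± SD, n = 4) and Dlx2 from 21.2 ± 5.85 to 1.27 ± 0.255. Gad1, the GABA synthesis enzyme of the eminence, was at 122 ± 3.38 CPM in wild type. Transcripts of the neighbouring pallium were present in both genotypes, with Neurod6 at 274 ± 43.7 CPM in wild type and 330 ± 69.1 in knockout.

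Of the 49 members only Etv5 passed the test of knockout against wild type and fell, by 2.02-fold. None rose by the edgeR quasi-likelihood test, which compared genotypes over all 14510 genes tested with Benjamini-Hochberg adjustment at 0.05. That is 1 of 49 (2.04%), beside 1.48% of all genes, and by direction 0 higher, beside 0.586%, and 1 lower, beside 0.896%. At an unadjusted p under 0.05 there were 12 (24.5%), beside 7.69% of all genes, with 7 higher, beside 4% of all genes, and 5 lower, beside 3.69%. When the replicate number was kept as a block, 5 members passed, beside 4.38% of all genes. Fgfr2, Spry1 and Spry2 rose, beside 2.22%, and Etv5 and Fgf12 fell, beside 2.16%. DESeq2 without the block called 5, beside 3.23% of all genes, with 3 higher, beside 1.57%, and 2 lower, beside 1.65%, with Fgf14 in the place of Fgf12. The 4 values of each genotype did not overlap for 5 members, beside 5.98% of all genes. These were Fgfr2, Spry1 and Spry2, higher in knockout (6.12%, beside 2.89%), and Etv5 and Fgf14, lower (4.08%, beside 3.09%). Across the members the median log2 change was −0.00, and the median size of the change was 0.153, beside 0.0802 over all genes. For 29 of 49 members the 95% interval of the change lay within 1.5-fold in either direction. Differences are given below as log2 of knockout over wild type.

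**Figure D1:**
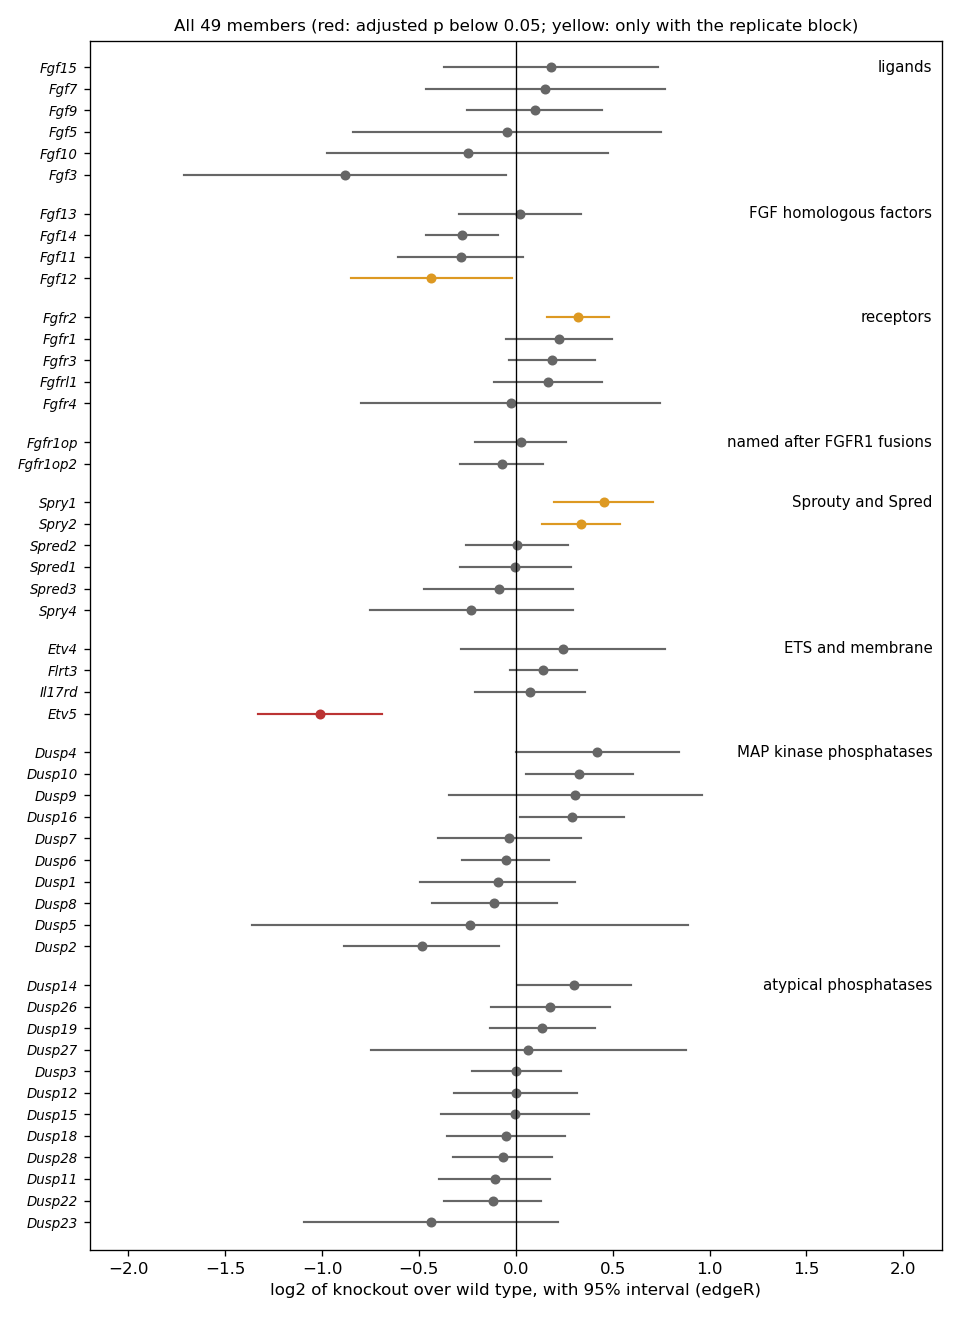
Log2 change of each of the 49 members, knockout over wild type, with 95% intervals from edgeR, ordered by role. Etv5 (−1.01) is the only member with an adjusted p under 0.05. Intervals also clear 0 on the right for Fgfr2, Spry1, Spry2, Dusp4, Dusp10, Dusp14 and Dusp16. On the left they do so for Dusp2, Fgf3, Fgf12 and Fgf14.

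Etv5 and Etv4 encode ETS factors of the PEA3 group, which are induced by FGF receptor signalling. Etv5 stood at 8.14, 7.72, 8.87 and 6.79 CPM in wild-type replicates 1 to 4 and at 4.48, 3.97, 3.08 and 3.93 CPM in knockout replicates 1 to 4. Every knockout library was below every wild-type library. The mean fell 2.02-fold, from 7.88 ± 0.867 to 3.86 ± 0.583 CPM (log2 −1.01, SE 0.14, 95% interval −1.33 to −0.69, edgeR adjusted p = 0.00539). Etv4 was low in both genotypes, at 1.81, 1.34, 1.27 and 1.75 CPM in wild type and 1.97, 2.49, 1.54 and 1.27 CPM in knockout. The groups overlapped throughout, and the change of 0.24 had an interval of −0.28 to 0.77. The log2 ratio of Etv5 to Etv4 within a library was 2.04 ± 0.31 in wild type and 0.93 ± 0.31 in knockout (SD, n = 4), a difference of −1.11. An exact two-sided permutation test over the 8 libraries gave p = 0.0286, the smallest that 70 splits allow, and 0.0572 after adjustment over the 6 ratios compared, which were chosen after the values were seen. Etv5 relative to Dusp6 differed by −0.89 with the same p and adjusted p. Neither ratio therefore passed the correction. Both had the smallest p that this design allows, so this failure does not show that the ratios were unchanged.

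**Figure D2:**
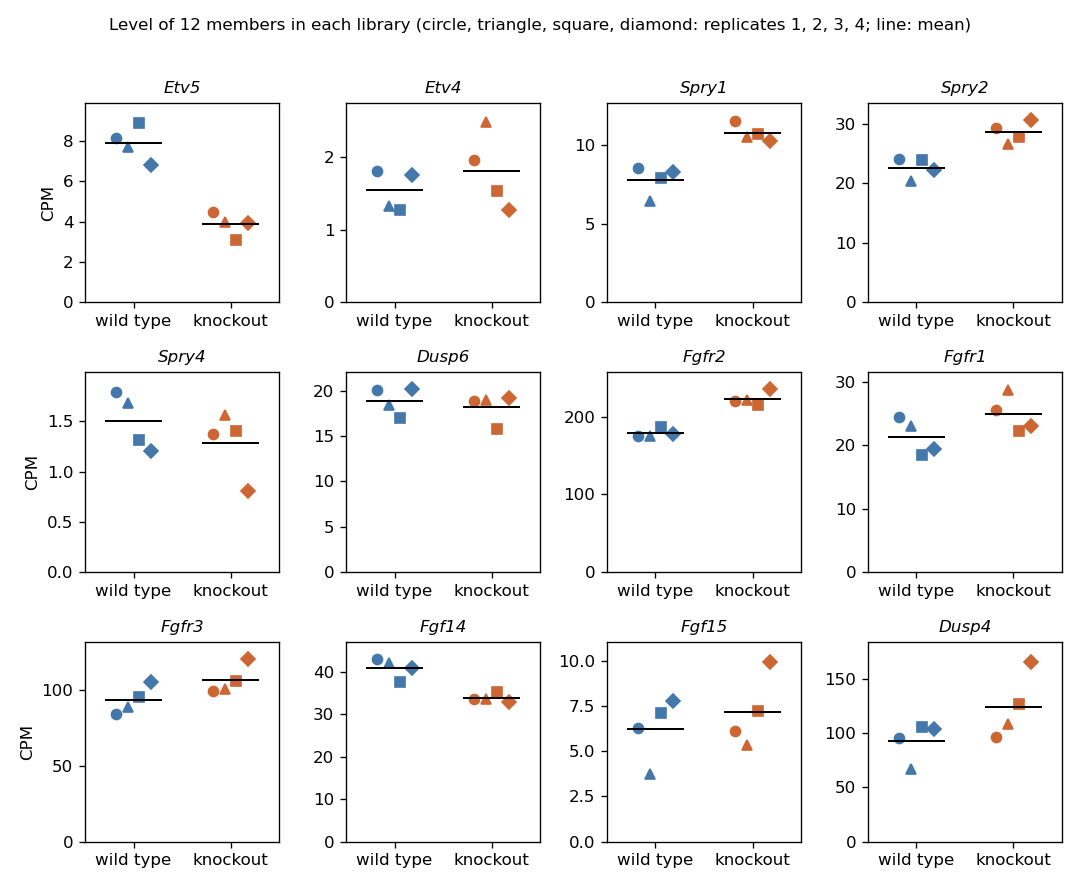
Levels in CPM of selected members in each library, wild type and knockout, with group means. Etv5 is lower and Fgfr2, Spry1 and Spry2 are higher in all 4 knockout libraries than in any wild-type library, whereas Etv4, Spry4 and Dusp6 overlap.

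The receptors include 4 kinases, Fgfr1 to Fgfr4, and Fgfrl1, a receptor without a kinase domain. Fgfr2 stood at 175.12, 176.03, 186.52 and 178.17 CPM in wild type and at 220.51, 221.77, 215.60 and 235.66 CPM in knockout. All 4 knockout libraries were above all 4 wild-type libraries, and the means were 179 ± 5.20 and 223 ± 8.61 CPM. The difference was 0.32 (SE 0.07, interval 0.16 to 0.48), with an adjusted p of 0.069 in edgeR without the block and 0.00638 with it. Under the block Fgfr2 passed, also with any 1 replicate number left out of both genotypes (adjusted p 0.0152 to 0.0448). Fgfr3, which marks progenitors and later astrocytes, was at 84.05, 89.10, 95.66 and 105.74 CPM in wild type and 99.70, 100.71, 105.80 and 120.51 CPM in knockout. These ranges overlapped, and the difference of 0.19 did not pass in edgeR (adjusted p = 0.837, with the block 0.0583). Fgfr1 differed by 0.22 (interval −0.05 to 0.50, adjusted p = 0.883) and Fgfrl1 by 0.16. The ratio of Fgfr2 to Fgfr1 differed by 0.10 between genotypes (exact permutation p = 0.514) and that of Fgfr2 to Fgfr3 by 0.13 (p = 0.171). Compared within each replicate number, an alternative chosen after seeing the data, the ratio of Fgfr2 to Fgfr3 was higher in knockout in 4 of 4 numbers, by 0.09, 0.16, 0.06 and 0.21, and that of Fgfr2 to Fgfr1 in 3 of 4. An exact two-sided sign-flip permutation test gave p = 0.125 for the former, the smallest that 4 pairs allow, and 0.375 for the latter, so 4 pairs cannot pass 0.05. The same p was reached by other ratios with larger mean differences. Etv5 to Etv4 (−1.11) and Etv5 to Dusp6 (−0.89) were lower in knockout in every number. Spry1 to Spry4 (0.61) and Spry2 to Spry4 (0.50) were higher in 4 of 4. Fgfr4 was low, with a mean of 0.528 CPM in wild type and a change of −0.02 (interval −0.80 to 0.75).

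Sprouty proteins restrain signalling downstream of the receptor, and Spred proteins act on RAS and RAF. Spry1 stood at 8.57, 6.48, 7.94 and 8.29 CPM in wild type and 11.53, 10.54, 10.70 and 10.28 CPM in knockout. Spry2 stood at 24.03, 20.38, 23.85 and 22.17 CPM in wild type and 29.34, 26.59, 27.75 and 30.52 CPM in knockout. For both genes the knockout libraries lay above the wild-type libraries with no overlap. The difference of Spry1 was 0.45 (SE 0.11, interval 0.20 to 0.71, edgeR adjusted p = 0.111, with the block 0.0317). That of Spry2 was 0.33 (SE 0.09, interval 0.13 to 0.54, adjusted p = 0.144, with the block 0.0199). Both also passed in DESeq2 without the block (adjusted p 0.0136 and 0.0329). With the block and 1 replicate number left out, Spry1 passed in none of the 4 cases (adjusted p 0.0628 to 0.179) and Spry2 passed only without replicate 3 (0.0343 to 0.125). Spry4 stood at 1.79, 1.68, 1.32 and 1.21 CPM in wild type and 1.38, 1.57, 1.40 and 0.81 CPM in knockout. The values overlapped, and the difference of −0.23 had an interval of −0.75 to 0.30. The ratio of Spry1 to Spry4 was higher in knockout by 0.61 (exact permutation p = 0.0286, adjusted 0.0572) and that of Spry2 to Spry4 by 0.50 (p = 0.0857, adjusted 0.129).

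None of the Spred genes passed. Spred1 stood at 190.65, 181.92, 152.82 and 146.54 CPM in wild type and 188.85, 189.53, 140.44 and 152.30 CPM in knockout. Replicates 3 and 4 were lower than 1 and 2 in both genotypes, and the means were 168 ± 21.6 and 168 ± 25.2 CPM (log2 −0.00, interval −0.29 to 0.29). Spred2 differed by 0.01 and Spred3 by −0.09, and the 95% intervals of all 3 Spred genes lay within 1.5-fold. Il17rd, also known as Sef, differed by 0.07 (interval −0.21 to 0.36) and Flrt3, a partner of FGF receptors, by 0.14 (edgeR adjusted p = 0.889).

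**Figure D3:**
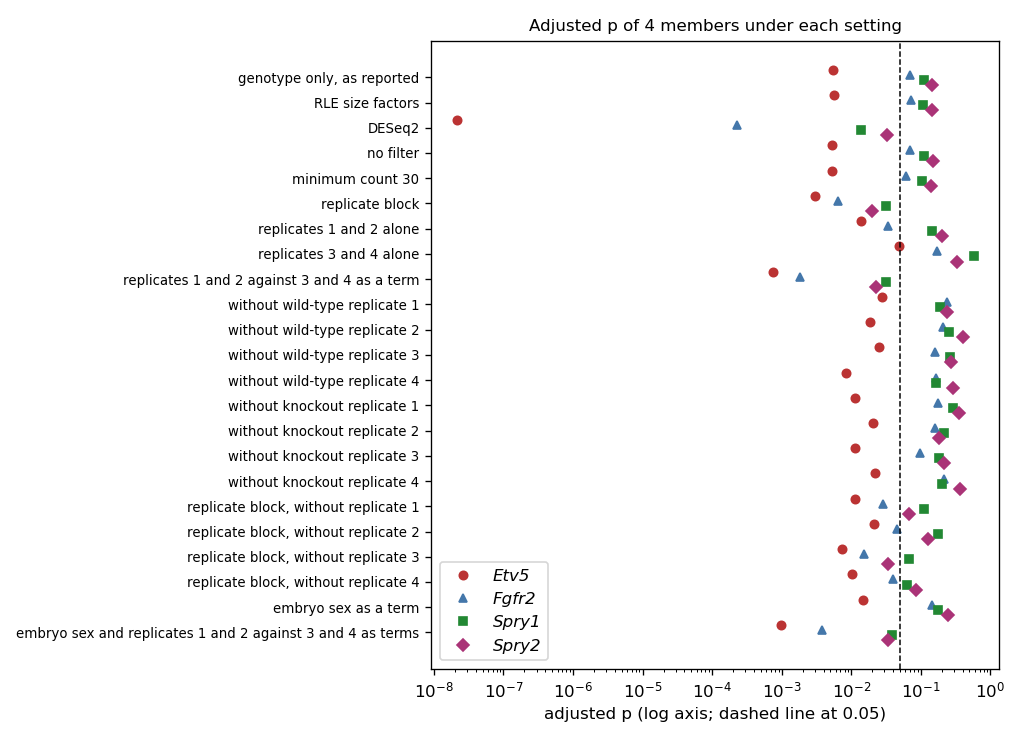
Adjusted p of Etv5, Fgfr2, Spry1 and Spry2 under the reported fit and under alternatives, on a log axis with a dashed line at 0.05. Etv5 lies below the line in each fit shown, Fgfr2 in those with a replicate term, in DESeq2 and in replicates 1 and 2 alone, and the Sprouty genes in fewer.

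Among the MAP kinase phosphatases, Dusp6, the cytoplasmic ERK phosphatase that is itself induced by FGF signalling, stood at 20.06, 18.40, 17.02 and 20.21 CPM in wild type and 18.92, 18.96, 15.78 and 19.24 CPM in knockout. The groups overlapped, and the difference of −0.05 had an interval of −0.28 to 0.17. Dusp4, a nuclear phosphatase, stood at 95.05, 66.89, 106.05 and 103.36 CPM in wild type and 96.31, 108.22, 127.13 and 165.73 CPM in knockout. Its means of 92.8 ± 17.9 and 124 ± 30.4 CPM differed by 0.42 (SE 0.19), within overlapping values (edgeR adjusted p = 0.65, with the block 0.0638). With the block and 1 replicate number left out, Dusp4 passed only without replicate 1 (adjusted p = 0.00852, beside 0.305, 0.0928 and 0.284 without replicates 2, 3 and 4). Dusp2, another nuclear phosphatase, differed by −0.49 (adjusted p = 0.416). Dusp10 and Dusp16, which act on JNK and p38, differed by 0.33 and 0.29 (adjusted p = 0.439 and 0.554). Dusp16 passed with the block and without replicate 3 (0.39, adjusted p = 0.0491), and not with the block over all 4 numbers (0.152). Without the block none of these 10 phosphatases passed over all 8 libraries, nor did any of the 12 atypical ones, whose changes ran from −0.44 to 0.30. Fgfr1op and Fgfr1op2 differed by 0.03 and −0.07.

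The 6 ligands in the table were Fgf3, Fgf5, Fgf7, Fgf9, Fgf10 and Fgf15. Fgf8, Fgf17 and Fgf18, ligands of rostral signalling centres, were not analysed here. Fgf3 was low, with 173, 27, 24 and 34 counts in wild type and 24, 42, 2 and 30 in knockout, or 1.51, 1.34, 1.02 and 1.42 CPM against 0.57, 0.88, 0.13 and 1.15. Knockout replicate 4 lay within the wild-type range and the other 3 knockout libraries lay below it. The difference was −0.88 (SE 0.37, interval −1.71 to −0.05) with an edgeR adjusted p of 0.577. Fgf15, expressed in progenitors, stood at 6.30, 3.76, 7.13 and 7.79 CPM in wild type and 6.09, 5.35, 7.22 and 9.93 CPM in knockout, and differed by 0.18 (interval −0.37 to 0.73). Fgf9 was at 7.69 ± 0.881 and 8.30 ± 1.70 CPM, a difference of 0.10. None of the 6 ligands passed. Fgf5 and Fgf10 had wild-type means under 1 CPM. For Fgf5 the 95% interval of the fold ran from 0.559 to 1.68, so a change within it was not excluded.

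The 4 FGF homologous factors are neuronal genes. Fgf14 stood at 43.07, 42.00, 37.69 and 40.93 CPM in wild type and 33.58, 33.45, 35.31 and 32.83 CPM in knockout, with no overlap between the groups. The difference was −0.28 (SE 0.08), with an adjusted p of 0.21 in edgeR, 0.067 with the block and 0.0208 in DESeq2. Fgf12 stood at 10.73, 12.71, 9.17 and 8.75 CPM in wild type and 9.15, 9.03, 6.35 and 5.70 CPM in knockout. Its groups overlapped, while within each replicate number the knockout library was the lower, and the difference of −0.44 (SE 0.19) had an edgeR adjusted p of 0.587 without and 0.0406 with the block, a call lost when any 1 replicate number was left out (0.0554 to 0.204). Fgf11 differed by −0.28 (adjusted p = 0.8) and Fgf13 by 0.02.

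Genes that work with the members were read from 5 further lists. Of 31 adaptors and kinases of the ERK cascade, 0 passed in edgeR, and with the block Ksr1, an ERK scaffold, fell (log2 −0.83, adjusted p = 0.153 without and 0.0011 with it). Of 24 heparan sulfate coreceptors and enzymes, only 1 rose in edgeR, the glypican Gpc4, beside 0.586% of all genes. Gpc4 rose from 13.1 ± 2.07 to 22.0 ± 2.14 CPM (0.74, edgeR adjusted p = 0.0207). This call was lost without wild-type replicate 1 or 3 or knockout replicate 3 or 4 (adjusted p up to 0.0725). With the block, Hs6st2, a heparan sulfate sulfotransferase, fell (−0.43, adjusted p = 0.128 without and 0.00394 with it), as did the sulfatase Sulf2 (−0.39, 0.981 and 0.0317). DESeq2 also called Hs6st2 lower (adjusted p = 0.0179). Of 18 other genes induced by ERK, 2 fell, beside 0.896% of all genes, and none rose. Of the 18 changes, 14 were negative (77.8%, beside 51% of all genes), with a median of −0.15, beside −0.00 over all genes. The genes that fell were Fosl2, a subunit of AP-1, which fell from 4.84 ± 0.670 to 2.13 ± 0.213 CPM (−1.18, SE 0.15, edgeR adjusted p = 0.0031), and Etv1, the third member of the PEA3 group. Etv1 stood at 12.59, 11.48, 13.33 and 15.25 CPM in wild type and 8.09, 7.05, 8.43 and 8.31 CPM in knockout (−0.73, SE 0.12, adjusted p = 0.0125). Every knockout library was below every wild-type library, as for Etv5. With the block, Egr3 (−0.95, adjusted p = 0.0398) and Myc (−0.89, 0.0273) passed as well.

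Of 21 other inhibitors of receptor tyrosine kinases, 1 rose, beside 0.586% of all genes, and 1 fell, beside 0.896%. Lrig1 rose (0.46, edgeR adjusted p = 0.0334) and Flrt2, a relative of Flrt3, fell from 162 ± 21.8 to 87.0 ± 10.5 CPM (−0.89, adjusted p = 0.0043). The call of Lrig1 was lost without any 1 of the 8 libraries (adjusted p 0.0644 to 0.116). Of 31 other receptors of this class and their ligands, 2 rose and 2 fell in edgeR, beside the same shares of all genes. Pdgfra rose from 17.7 to 51.0 CPM (1.53, adjusted p = 0.00335) and Egfr from 2.12 to 5.41 CPM (1.32, adjusted p = 0.0103). The neuregulin receptor Erbb4 fell (−1.71, adjusted p = 5.46e-05) and the neurotrophin receptor Ntrk3 from 39.7 to 27.6 CPM (−0.52, adjusted p = 0.0465). The call of Ntrk3 was also lost without any 1 of the 8 libraries (adjusted p 0.0568 to 0.143).

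**Figure D4:**
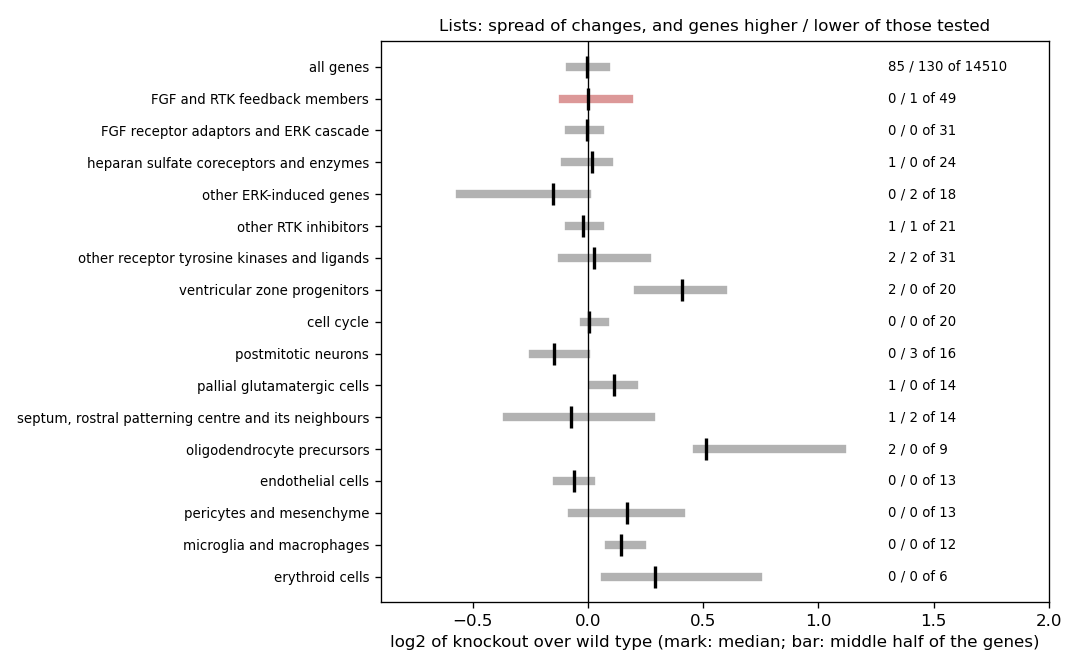
Median (mark) and middle 50% (bar) of the log2 changes in each list, knockout over wild type, with the numbers of genes higher and lower of those tested. The members centre on 0, the ventricular zone progenitor list lies at a median of 0.41 and the oligodendrocyte precursor list at 0.51.

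Markers of other cells moved with some of these results. In bulk tissue, fewer cells of a type and less RNA per cell cannot be told apart. All 20 ventricular zone progenitor markers had positive changes (median 0.41). Of these, 2 rose in edgeR, beside 0.586% of all genes, and 11 with the block, beside 2.22%. Their summed level was 2479 to 3117 CPM in the wild-type libraries and 3389 to 4042 CPM in the knockout libraries, with no overlap. The 9 oligodendrocyte precursor markers summed to 259 to 314 CPM in wild type and 378 to 472 CPM in knockout, and 2 of them rose, Pdgfra and Gpr17, beside the same 0.586% of all genes. The progenitor and precursor lists share Olig1 and Olig2, and Pdgfra also stands in the list of other receptors, so these lists are not separate readings. The edgeR call of Gpr17 was lost without wild-type replicate 1, 2 or 3 or knockout replicate 1 or 4 (adjusted p up to 0.0717). Postmitotic neuron markers summed to 5855 to 6397 CPM in wild type and 5280 to 5627 CPM in knockout. Of the 16 changes, 12 were negative and 4 positive (median −0.15). In edgeR 3 fell, beside 0.896% of all genes, and these were the GABA genes Gad1, Gad2 and Slc32a1. No other marker of this list passed without the block, and with it Stmn2 fell as well. Every tested marker of these lists had counts in some library. Fgfr2, Spry1 and Spry2 moved in the direction of the progenitor and precursor lists, and Etv5, Fgf12 and Fgf14 in that of the neuron list. These directions were not particular to those lists. Changes were also mostly positive for pallial (12 of 14), microglial (10 of 12), erythroid (5 of 6) and pericyte and mesenchymal (9 of 13) markers. Endothelial changes were mostly negative (9 of 13). The part of cell makeup in these results was not tested. Cell cycle genes had a median of 0.00 with 0 of 20 called in edgeR, and endothelial (13 genes), pericyte and mesenchymal (13), microglial (12) and erythroid (6) lists also had none called. Of 14 pallial markers 1 rose, Lhx9, beside 0.586% of all genes. Among the 14 tested markers of the septum and rostral patterning centre, 1 rose and 2 fell, beside 0.586% and 0.896% of all genes. Sp8 fell from 38.6 ± 3.57 to 7.28 ± 0.861 CPM, Vax1 fell and Otx2 rose. Of the 14 changes in this list, 6 were positive and 8 negative (median −0.07). No member belongs to any of these lists.

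In the authors' deposited table, which gives their own likelihood ratio test of the same libraries, Etv5 was also the only member with an adjusted p under 0.05 (log2 −1.01, adjusted p = 1.49e-05). The next lowest adjusted p in the authors' likelihood ratio test was 0.115, for Fgf3 (log2 −0.93). It was followed by 0.193 for Spry1, 0.427 for Fgfr2 and 0.471 for Spry2.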

How the data were processed

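RNA-seq counts per gene were deposited by the authors without normalization, from reads processed with bcl2fastq and STAR 2.4.2a on genome build mm9, per the submitters' processing notes. No source used here names the counting tool or its strand setting, so a gene and its antisense partner cannot be told apart. The labels name polyA RNA and also a kit for ribosome-depleted total RNA. The same deposited table gives the authors' log2 fold change, likelihood ratio score and p-value with its adjusted form, per the file headers. The ChIP files were not used.

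Counts were scaled by TMM and compared by quasi-likelihood F-test in edgeR 4.0.16 (R 4.3.3; filterByExpr, minimum count 10; Benjamini-Hochberg over all genes tested at 0.05), knockout against wild type. The test was first tried on simulated data. Levels are CPM, and ratios used log2(CPM + 0.5). DESeq2 1.42.0, other size factors, filters, terms and left-out libraries were alternatives.

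Libraries with the same replicate number deviated together (correlations 0.251, 0.446, 0.526 and 0.588, all above 0.1). This pairing comes from the data, since no label says what a number marks. Wild-type replicate 1 was most like knockout replicate 2, and wild-type replicate 2 like knockout replicate 1, and the libraries numbered 1 and 2 differ in sex between genotypes. The labels tie no library to an embryo, so p-values measure the spread between these libraries. The members, lists and tests were chosen with earlier results of these data known. Named genes were members with an adjusted p under 0.05, the 10 with the smallest p, those whose groups did not overlap, a set list of signalling genes, and in other lists the called genes and at most 3 others. Of the 49 members, 48 matched the reference by symbol and 1 by synonym.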

Additional observations from a re-analysis of the deposited data

Results flagged for a closer look

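In 4 of the 48 groups of 4 libraries screened among the named members, 1 library lay far from the other 3 by Dixon's criterion, and chance gives about 1 in 20. Dusp10 was at 7.38 CPM in wild-type replicate 4, beside 5.9 to 6.09 in the others. Dusp2 was at 2.62 CPM in wild-type replicate 1, beside 3.86 to 3.96. Dusp6 was at 15.8 CPM in knockout replicate 3, the shallowest library, beside 18.9 to 19.2. Il17rd was at 16.8 CPM in wild-type replicate 4, beside 12.4 to 13. None of these genes passed the edgeR test.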

How the results depend on the processing

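Of 24 named members under 22 alternatives, Etv5 kept its direction and its call in each (edgeR adjusted p at most 0.048, in replicates 3 and 4 alone), no called member lost its call, and 9 alternatives called Fgfr2. Other models raised the counts, and the cause was not tested. Members called higher and lower were 3 and 2 in DESeq2, 3 and 2 with the replicate block, 3 and 3 with replicates 1 and 2 against 3 and 4 as a term, and 4 and 3 with embryo sex as a further term, which called Dusp4, Etv5, Fgf12, Fgf14, Fgfr2, Spry1 and Spry2. Replicates 1 and 2 alone gave 1 higher. The fits with sex and the block without 1 number were chosen after seeing the data, and sex alone as a term left the member counts as reported. All genes called higher and lower were 85 and 130 as reported, 228 and 240 in DESeq2, 322 and 313 with the replicate block, 178 and 202 in replicates 1 and 2 alone, 333 and 336 with the term and 356 and 340 with sex as well. With 1 library left out, they were 50 to 66 and 92 to 121, members 0 and 1 in each case, pathway list genes 2 to 3 and 4, and cell type list genes 5 to 8 and 5 to 6. Pathway list genes called higher were 2 in replicates 3 and 4 alone, and lower 9, 11, 8, 11 and 12 in DESeq2, the block, replicates 1 and 2 alone, the term and the term with sex, beside 4 and 5 as reported. Cell type list genes called higher were 16, 20, 14, 21 and 20 in the same fits, beside 6. With the replicate block and number 1, 2, 3 or 4 left out, members called higher were 2, 1, 3 and 1 and lower 1, 1, 2 and 1, all genes higher 200, 184, 264 and 222 and lower 249, 188, 269 and 223, pathway list genes lower 8, 8, 10 and 8, and cell type list genes higher 19, 16, 21 and 19. Changes of uncalled members near 0 changed sign in some fits, none past the threshold (smallest edgeR adjusted p 0.871). In replicates 3 and 4 alone these were Etv4 −0.125, Spred2 −0.125 and Spred3 0.0530, and in replicates 1 and 2 alone Spred1 0.0223. With 1 library left out, Dusp6 ran from −0.0999 to 0.00697, Fgf15 from −0.0238 to 0.303, Fgf9 from −0.0357 to 0.168, Spred1 from −0.0650 to 0.0742, Spred2 from −0.0574 to 0.0506 and Spred3 from −0.194 to 0.0173. With the replicate block, Etv4 came to −0.0182 and Spred3 to 0.0185 without number 2, Spred1 to 0.0406 without number 3, and Spred2 to −0.0208 without number 1 and −0.0390 without number 2. Depth limits the low members, 6 of which had wild-type means under 1 CPM.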

Other observations

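Members differed between replicates 1 and 2 and replicates 3 and 4 in the same direction in both genotypes for 40 of 49, with 23 lower and 17 higher in replicates 3 and 4, given here as a description with no test. On the log2(CPM + 0.5) scale the difference was −0.31 in wild type and −0.37 in knockout for Spred1, −0.37 and −0.39 for Dusp12, 0.56 and 0.53 for Fgf15, 0.39 and 0.51 for Dusp4 and 0.88 and 0.75 for Dusp27. For Fgfr2 it was 0.05 and 0.03. The labels do not say what the replicate numbers stand for.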
